A study of Mus musculus with 6 samples.

Results

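A set of 7 long non-coding RNAs was followed in mouse embryonic stem (ES) cells: Malat1, Neat1, Miat, Tug1, Pvt1, Mir17hg and Rmst. They were taken by symbol from the deposited table of raw read counts, where 7 of the 23420 gene rows carry these names. The libraries come from ES cells stably transduced with a lentivirus for the mutant KBP(KK/RR) (replicates 4, 5 and 6) or for wild-type KBP (replicates 1, 2 and 3). Both groups grew under self-renewing conditions, and both carry a lentivirus, so no untransduced cells stand beside them. The KIF1-binding protein, KBP, attaches to kinesin motors, and the labels describe the mutant as stable. The strain, the sex and the number of clones are not given in the labels, nor whether replicates came from separate cultures, so p-values measure the spread between these libraries, which may be technical.

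Long non-coding RNAs are transcripts that are spliced or cleaved like messenger RNAs but are not known to be translated into a main protein. Several act in the nucleus: Malat1 gathers at nuclear speckles, where splicing factors are stored, Neat1 is the scaffold on which paraspeckles assemble, and Miat (also called Gomafu) sits in separate nuclear foci. Tug1 is spliced, broadly expressed and known for neural and retinal roles, Pvt1 lies next to the Myc oncogene, Mir17hg is the host transcript of the miR-17-92 microRNA cluster, and Rmst is known from neural development, where it binds SOX2 protein.

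Malat1 and the long Neat1 transcript end in an unusual way, shown here because it sets them apart from messenger RNAs. Their 3′ ends are cut by RNase P and protected by a triple helix of U-rich and A-rich stretches in place of a poly(A) tail. The letters tcagg before the U-rich run are also the same in both and stand in lower case. Both genes lie on the minus strand of chromosome 19. GENCODE M21 (GRCm38) gives these stretches, written as DNA from 5′ to 3′ with the runs TTTTGCTTTT and AAAAAGCAAAA, which both hold, in capitals.
Malat1, chr19:5795977-5796032: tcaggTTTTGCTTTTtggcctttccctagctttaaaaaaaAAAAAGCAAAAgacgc
Neat1, chr19:5824708-5824765: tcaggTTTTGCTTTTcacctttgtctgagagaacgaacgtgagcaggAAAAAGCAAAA
The Neat1 stretch is the very end of its annotated 20771-base transcript, and the Malat1 stretch lies 287 bases before the end of its annotated 6983-base transcript. Of 43368 genes whose longest transcript has at least 400 bases, 2 hold both letter runs in the last 400 bases (0.00461%), and these are Malat1 and Neat1. The runs were read from these same sequences on the transcript strand, so that share is a description.

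Miat carries copies of the letters ACTAAC, known as a binding sequence of the splicing factor SF1 and of the related protein QKI. Its longest annotated transcript (9163 bases) holds 11 copies on the transcript strand, against 4 in Neat1, 1 each in Tug1 and Pvt1, and 0 in Malat1, Mir17hg and Rmst. Of 4190 genes with a longest transcript of at least 5000 bases, 9 (0.215%) hold 11 or more. The densest stretch with 4 copies, in capitals, lies in one exon on the minus strand of chromosome 5 (GRCm38).
Miat, chr5:112216757-112216872: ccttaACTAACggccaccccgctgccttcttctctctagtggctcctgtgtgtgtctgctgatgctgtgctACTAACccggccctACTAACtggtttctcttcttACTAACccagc

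Mir17hg is read here as a host transcript, so the microRNAs it is processed into are shown (RefSeq, GRCm38.p6, plus strand of chromosome 14), with the seed, bases 2 to 8, in capitals. The 6 hairpins give main arms of 4 seed families.
mmu-miR-17-5p: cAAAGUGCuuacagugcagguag
mmu-miR-20a-5p: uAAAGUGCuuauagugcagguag
mmu-miR-18a-5p: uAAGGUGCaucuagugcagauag
mmu-miR-19a-3p: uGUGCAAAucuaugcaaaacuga
mmu-miR-19b-3p: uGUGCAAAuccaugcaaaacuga
mmu-miR-92a-3p: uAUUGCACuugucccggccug
miR-17 and miR-20a share a seed, as do miR-19a and miR-19b, whereas miR-18a and miR-92a each have their own.

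Total counts per library ran from 24131743 to 32160411. The ES cell identity of the cultures was checked with 10 marker genes, whose summed level was 6647 to 6937 CPM (counts relative to the TMM-scaled library total) in KBP(KK/RR) libraries and 6764 to 6857 CPM in wild-type KBP libraries. Pou5f1 averaged 1435 ± 55.8 CPM in KBP(KK/RR) cells and 1451 ± 58.9 CPM in wild-type KBP cells (SD, n = 3 each). Of the 10 markers edgeR called 0, and 4 did not overlap between the groups (40%, beside 22.4% of all genes tested). By smallest p, Esrrb and Klf4 were lower (log2 fold change -0.09 each, edgeR adjusted p 0.182 and 0.208) and Nanog was higher (0.10, 0.191). Such opposite shifts can offset each other in the sum. The row of the KBP gene itself (2510003E04Rik) averaged 56.6 ± 2.88 CPM in KBP(KK/RR) cells and 48.3 ± 1.30 CPM in wild-type KBP cells and was called higher (log2 fold change 0.23, edgeR adjusted p = 0.0133). That row counts endogenous and any vector-derived reads together. In a principal component analysis, wild-type KBP replicate 3 stood apart from the other 5 libraries along the second component (20.8% of the variance), which bears on Neat1, Miat and Mir17hg.

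Among the RefSeq rows of the long non-coding class, 1708 in the table and 537 of them with no read in any library, Neat1, Malat1 and Tug1 ranked 3rd, 4th and 5th by CPM. Mir17hg ranked 19th, Pvt1 55th and Miat 62nd. CPM is not divided by length, so these ranks favour long transcripts. Per kilobase of the longest GENCODE transcript, Malat1 ranked 16th, Tug1 19th, Mir17hg 36th and Neat1 52nd. Pvt1 ranked 71st and Miat 170th on that scale, among the 1557 rows of the class with a length. Neat1 took 4.82% of all counts in that class over the 6 libraries, Malat1 4.75% and Tug1 4.02%. Of all counts, the 7 genes together took 0.0564% to 0.0635% in KBP(KK/RR) libraries and 0.0610% to 0.0765% in wild-type KBP libraries.

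Per length, the order was different. On the RPKM scale, which is CPM over the kilobases of the longest GENCODE transcript, Malat1 averaged 24.7 ± 3.93 in KBP(KK/RR) cells and 33.0 ± 3.23 in wild-type KBP cells. Tug1 averaged 24.2 ± 2.03 RPKM in KBP(KK/RR) cells and 26.7 ± 0.577 RPKM in wild-type KBP cells. These levels of Malat1 and Tug1 overlapped among KBP(KK/RR) libraries, and in wild-type KBP libraries the lowest Malat1 level (30.9) lay above the highest Tug1 level (27.4). Mir17hg followed at 13.4 ± 0.374 RPKM in KBP(KK/RR) cells and 14.7 ± 2.69 RPKM in wild-type KBP cells, and Neat1 at 9.57 ± 0.825 RPKM in KBP(KK/RR) cells and 10.1 ± 2.29 RPKM in wild-type KBP cells. Mir17hg and Neat1 levels did not overlap in KBP(KK/RR) libraries and overlapped narrowly in wild-type KBP libraries, where the lowest Mir17hg value was 11.65 and the highest Neat1 value 11.66. Pvt1 was lower, at 4.94 ± 0.220 RPKM in KBP(KK/RR) cells and 5.02 ± 0.552 RPKM in wild-type KBP cells, and Miat was the lowest with any reads, at 1.29 ± 0.129 RPKM in KBP(KK/RR) cells and 1.47 ± 0.393 RPKM in wild-type KBP cells. The place of Neat1 depends on which transcript its reads come from, which the table does not separate. Divided by its shorter annotated transcript of 3004 bases, a length chosen after seeing the data, Neat1 would average 66.2 ± 5.71 RPKM in KBP(KK/RR) cells and 69.9 ± 15.8 RPKM in wild-type KBP cells, above Malat1. With the union of exons as the length, Tug1 averaged 16.7 RPKM in KBP(KK/RR) cells and 18.4 RPKM in wild-type KBP cells, and Pvt1 2.34 RPKM in KBP(KK/RR) cells and 2.38 RPKM in wild-type KBP cells. Mir17hg was divided by 3536 bases, whereas its RefSeq span is 2339 bases. Over that span its level would be higher, so its place also depends on the annotation counted.

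**Figure D1:**
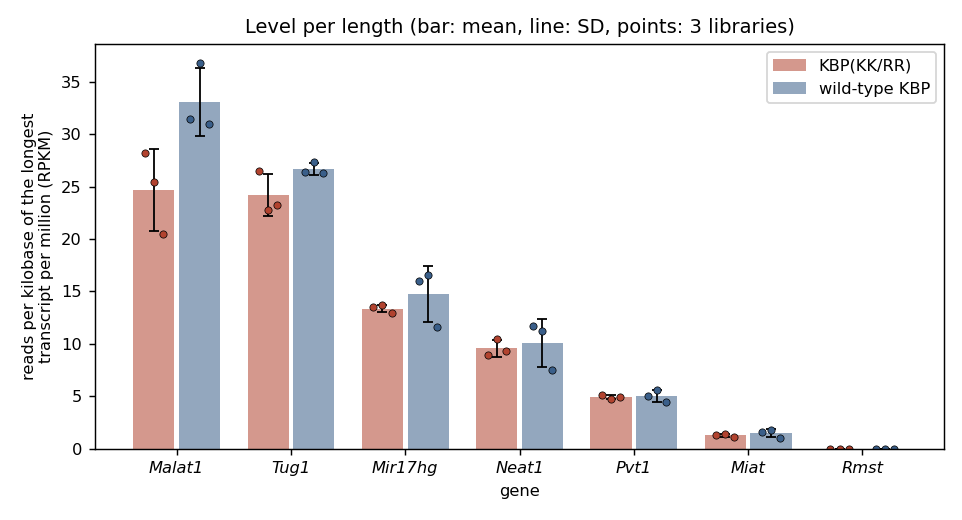
Level per length of the 7 long non-coding RNAs (y axis, RPKM, CPM over kilobases of the longest transcript; x axis, gene), with KBP(KK/RR) bars to the left of wild-type KBP bars, SD lines and 1 point per library (n = 3 each). Malat1 and Tug1 stand above 20 RPKM in each library, Miat stays under 1.78 RPKM and Rmst is at 0.

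None of the 6 long non-coding RNAs with reads was called as different between the groups by edgeR (adjusted p under 0.05 over 14340 genes), against 448 of all genes tested (3.12%; 151 or 1.05% higher and 297 or 2.07% lower, a split that was 235 higher and 205 lower with upper-quartile factors and 308 and 378 with a length and GC trend taken out). All 6 log2 fold changes were below 0, as were 7282 of the 14340 genes tested. The median was -0.14 for the 6, beside -0.002 over all genes tested. An unadjusted p under 0.05 was reached by 2 of the 6, Malat1 and Tug1, against 18.6% of all genes. DESeq2 called 0 of the 6 and limma-voom called 1, Malat1. In these bulk cultures fewer cells of a type and less RNA per cell cannot be told apart.

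Malat1 had the lowest fold. It measured 197, 177 and 143 CPM in KBP(KK/RR) replicates 4, 5 and 6, against 219, 257 and 216 CPM in wild-type KBP replicates 1, 2 and 3. The groups did not overlap, as was true of 22.4% of all genes tested, and the KBP(KK/RR) libraries spread more widely in proportion. Its log2 fold change was -0.42 (SE 0.15), a fold of 0.747 with a 95% interval of 0.562 to 0.9925 (edgeR, adjusted p = 0.260, unadjusted p = 0.0463). That size was larger than 99.4% of the absolute log2 fold changes among 1005 genes of like level (mean log2 CPM within 0.5). At the same time the spread of Malat1 within groups, an SD of 0.19 on the log2 scale, was wider than that of 98.9% of those genes, whose median SD was 0.05. The call differed between ways of estimating that spread. Malat1 passed in limma-voom (adjusted p = 0.0244) and in edgeR without robust dispersions (0.0235), and it had an adjusted p of 0.106 in DESeq2 and of 0.154 to 0.526 with 1 library left out.

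Measures of RNA and cell composition were set beside Malat1. The row of the ribosomal RNA precursor Rn45s held 1550 to 1751 CPM in KBP(KK/RR) libraries and 1966 to 2467 CPM in wild-type KBP libraries, without overlap (log2 fold change -0.44, edgeR adjusted p = 0.123). Where the mean log2 CPM was 1 or more, genes with a longest transcript of 8000 bases or more had a median log2 fold change of -0.14, and those of 4000 to 8000 bases, the class of Malat1, of -0.03. After a length and GC trend was taken out, the log2 fold change of Malat1 was -0.38 (edgeR adjusted p = 0.191). Markers of primitive endoderm, a lineage that can arise in ES cultures, summed to 287 to 339 CPM in KBP(KK/RR) libraries and 363 to 442 CPM in wild-type KBP libraries, and 0 of 9 tested rose and 3 fell, beside 1.05% and 2.07% of all genes. Of these 3, Pdgfra lost its call in 7 of 18 alternatives, Col4a1 in 4 and Col4a2 in 11. Most of the sum came from Lama1 (161 CPM in KBP(KK/RR) and 227 CPM in wild-type KBP cells, edgeR adjusted p = 0.169) and Col4a1 (92.9 and 111 CPM). Gata4, Gata6 and Sox17 averaged 4.05, 1.16 and 0.517 CPM in KBP(KK/RR) cells. In wild-type KBP cells they averaged 4.62, 1.31 and 0.509 CPM, and none was called. Neural markers summed to 507 to 522 CPM in KBP(KK/RR) libraries and 511 to 525 CPM in wild-type KBP libraries, with 1 of 9 tested lower (Ncam1) and 0 higher. Fibroblast or feeder markers summed to 56.8 to 59.7 CPM in KBP(KK/RR) libraries and 50.3 to 57.0 CPM in wild-type KBP libraries, with 1 of 7 tested higher (Tagln) and 0 lower. No marker of these lists was at 0 in all libraries. The part of these measures in the Malat1 difference was not tested.

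Neat1, which lies 22035 bases from Malat1 on the same strand, showed another order of libraries. It measured 186, 218 and 193 CPM in KBP(KK/RR) replicates 4, 5 and 6, and 242, 232 and 155 CPM in wild-type KBP replicates 1, 2 and 3. The groups overlapped, and wild-type KBP replicate 3 held the lowest value of all. The log2 fold change was -0.08 (SE 0.20), a fold of 0.9455 with an interval of 0.644 to 1.39 (edgeR adjusted p = 0.877), and the sign was positive without wild-type KBP replicate 1 (0.03) or replicate 2 (0.003) and with the length and GC trend removed (0.17). Without wild-type KBP replicate 3 it was -0.26 (edgeR adjusted p = 0.0532). Within single libraries, the ratio of Malat1 to Neat1 counts was 1.06, 0.813 and 0.740 in KBP(KK/RR) cells, against 0.906, 1.10 and 1.39 in wild-type KBP cells. These ratios overlapped (exact two-sided permutation p = 0.2, where 3 against 3 libraries can reach 0.1 at the lowest). The ratio of Malat1 to Tug1 counts, 1.11, 1.16 and 0.913 in KBP(KK/RR) cells and 1.24, 1.40 and 1.22 in wild-type KBP cells, did not overlap (exact two-sided permutation p = 0.1, the lowest possible).

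Miat had few reads, with counts of 363, 313 and 312 in KBP(KK/RR) libraries and 386, 522 and 226 in wild-type KBP libraries. That came to 12.2, 12.8 and 10.5 CPM in KBP(KK/RR) replicates 4, 5 and 6, and 14.8, 16.3 and 9.42 CPM in wild-type KBP replicates 1, 2 and 3. As with Neat1, the range of wild-type KBP libraries enclosed that of the mutant, and replicate 3 was the lowest. The log2 fold change of -0.21 (SE 0.23) had an interval of -0.81 to 0.39 (edgeR adjusted p = 0.686). Without wild-type KBP replicate 3 it was -0.40 and passed the threshold (edgeR adjusted p = 0.0166), and without replicate 2 it was -0.04 (adjusted p = 0.954). With the length and GC trend removed it was -0.07 (edgeR adjusted p = 0.920).

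Tug1 varied less. It measured 178, 153 and 156 CPM in KBP(KK/RR) replicates 4, 5 and 6, against 177, 184 and 177 CPM in wild-type KBP replicates 1, 2 and 3. Mutant replicates 5 and 6 lay below the wild-type KBP range and replicate 4 inside it. The log2 fold change was -0.14 (SE 0.05), a fold of 0.907 with an interval of 0.845 to 0.973 (edgeR adjusted p = 0.122, unadjusted p = 0.00891). Without KBP(KK/RR) replicate 4 it was -0.21 and passed (edgeR adjusted p = 0.00301), and without any other library it lay between -0.15 and -0.10 (adjusted p 0.158 to 0.408). It also passed with no filter on low counts (0.0258) and with the length and GC trend removed (0.0419, log2 fold change -0.11). Morc2a, a chromatin ATPase gene whose RefSeq span lies 374 bases beyond that of Tug1, averaged 166 ± 7.39 CPM in KBP(KK/RR) cells and 173 ± 2.71 CPM in wild-type KBP cells (log2 fold change -0.06, edgeR adjusted p = 0.469). GENCODE lets the Tug1 gene run to 3649673, past the first RefSeq base of Morc2a at 3649189, and since the strand setting of the counting is not given, reads of that shared stretch cannot be assigned with certainty.

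Pvt1 had a fold near 1. It measured 17.1, 15.7 and 16.4 CPM in KBP(KK/RR) replicates 4, 5 and 6, and 16.6, 18.5 and 14.8 CPM in wild-type KBP replicates 1, 2 and 3. All mutant values lay within the wild-type KBP range. The log2 fold change was -0.03 (SE 0.08), with an interval of the fold from 0.878 to 1.09 (edgeR adjusted p = 0.875), and it was positive without wild-type KBP replicate 2 (0.06). Its neighbour Myc, which ends 47624 bases before Pvt1 starts, averaged 99.0 ± 6.43 CPM in KBP(KK/RR) cells and 101 ± 1.99 CPM in wild-type KBP cells (log2 fold change -0.02, SE 0.05, edgeR adjusted p = 0.833).

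Mir17hg measured 47.6, 48.4 and 45.8 CPM in KBP(KK/RR) replicates 4, 5 and 6, and 56.7, 58.5 and 41.2 CPM in wild-type KBP replicates 1, 2 and 3. The mutant libraries were close together, and the wild-type KBP libraries lay on both sides of them. The log2 fold change was -0.15 (SE 0.15), a fold of 0.903 with an interval of 0.693 to 1.18 (edgeR adjusted p = 0.659). Without wild-type KBP replicate 3 it was -0.29 and passed (edgeR adjusted p = 0.00407), whereas it was -0.09 without replicate 1 and -0.05 without replicate 2 (adjusted p = 0.840 and 0.908). What the row counts depends on the annotation, which is not given in the sources used here. RefSeq places Mir17hg at 115044390 to 115046728 on chromosome 14, a span that holds 1 of the 6 hairpins in full and 1 in part, whereas the GENCODE gene at 115042879 to 115046727 holds all 6. The rows of the hairpins themselves had 0 to 5 counts in a library, with Mir92-1 at 0 throughout, and mature microRNAs were not measured as such.

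Rmst had 0 counts in each of the 6 libraries. A count of 0 allows up to 3 counts, or 0.101 to 0.122 CPM in KBP(KK/RR) libraries and 0.0935 to 0.125 CPM in wild-type KBP libraries, counting error only. Over its longest transcript of 2891 bases this limit is 0.0433 RPKM or less, beside a lowest value of 1.03 RPKM for Miat. The rows of its hosted hairpin Mir1251, of Mir135a-2 and of Gm20757 on its other side were also at 0, so none of these 4 rows on chromosome 10 was detected at this depth. Of all 23420 rows, 4360 had no count in any library. Hairpin rows say little here, since those at Mir17hg held 0 to 5 counts in a library beside 988 to 1877 for Mir17hg itself. Sox2, whose protein binds Rmst, averaged 400 ± 21.9 CPM in KBP(KK/RR) cells and 386 ± 14.3 CPM in wild-type KBP cells, with an edgeR adjusted p of 0.566.

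**Figure D2:**
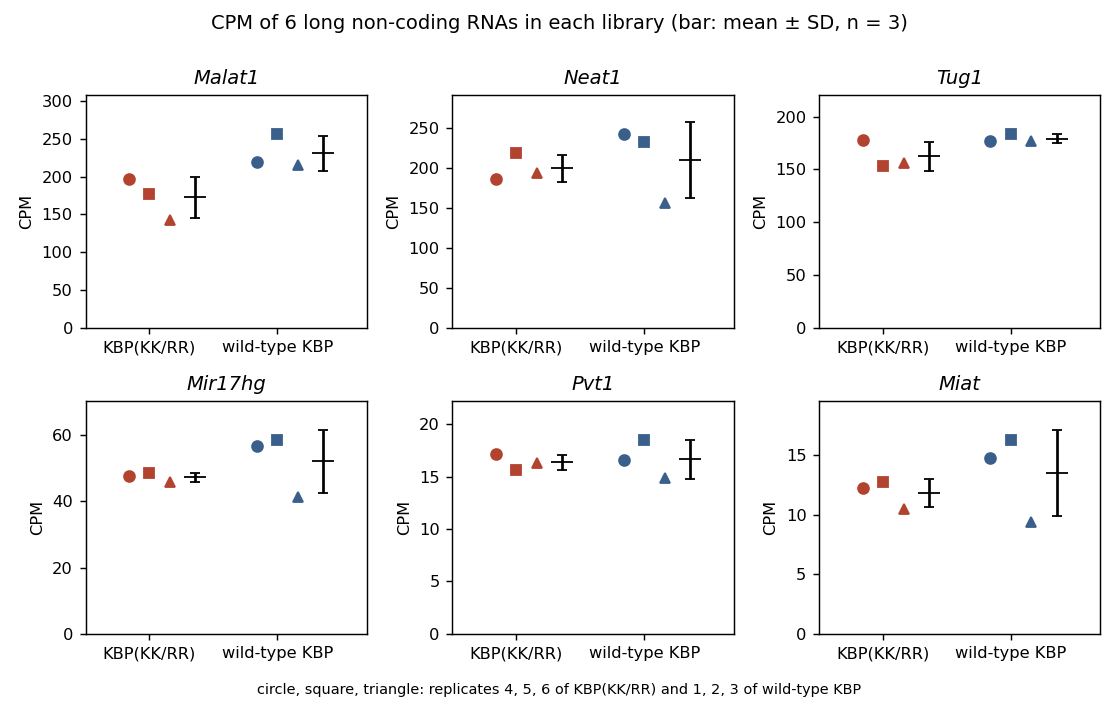
CPM of the 6 long non-coding RNAs with reads (y axes start at 0), 1 point per library, KBP(KK/RR) left of wild-type KBP, with mean ± SD bars (n = 3 each). Malat1 shows no overlap between the groups (highest KBP(KK/RR) value 197, lowest wild-type KBP value 216), and the wild-type KBP triangle, replicate 3, is the lowest point for Neat1, Mir17hg, Pvt1 and Miat.

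The replicate spread of these genes was wider than that of most genes of like level. Those genes are of any class, and other long non-coding RNAs were not compared on their own. For Miat the SD within groups was wider than that of 99.9% of 1517 genes of like level, for Neat1 wider than 99.8% of 982 and for Mir17hg wider than 99.0% of 2247. Tug1 was wider than 89.2% and Pvt1 than 86.0% of their like genes. For 4 genes the widest deviation fell in wild-type KBP replicate 3. There Miat deviated from its group mean by -0.48 on the log2 scale, Neat1 by -0.41, Mir17hg by -0.32 and Pvt1 by -0.16, the last close to its deviation of 0.16 in replicate 2. Malat1 lay 0.20 above its group mean in KBP(KK/RR) replicate 4 and 0.26 below it in replicate 6, and 0.09 below it in wild-type KBP replicate 3. Genes of at least 8000 bases, the class of Neat1 and Miat, had a median deviation of 0.03 in wild-type KBP replicate 3, of 0.12 in KBP(KK/RR) replicate 4 and of -0.08 in replicate 6. Replicate 3 had the lowest total of the wild-type KBP libraries (24131743). KBP(KK/RR) replicate 5 had a total of 24300832, and there Neat1, Miat and Mir17hg deviated by 0.14, 0.12 and 0.03. Whether depth has a part was not tested.

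**Figure D3:**
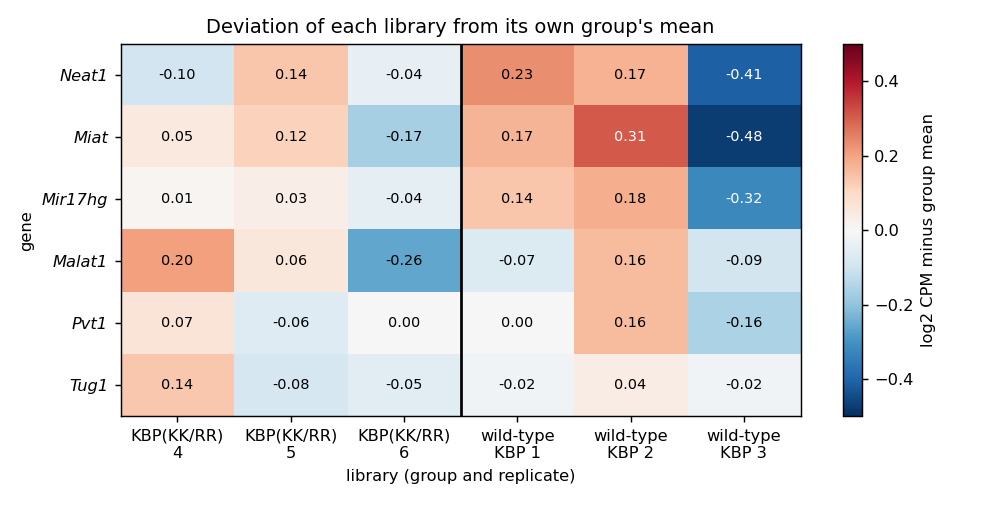
Log2 CPM of each library minus the mean of its own group, for 6 long non-coding RNAs (rows) in 6 libraries (columns, KBP(KK/RR) left of wild-type KBP), with the value printed in each cell. Neat1, Miat and Mir17hg are lowest in wild-type KBP replicate 3 (-0.41, -0.48 and -0.32), and Malat1 is lowest in KBP(KK/RR) replicate 6 (-0.26).

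Among candidate genes, the pattern most like that of Mir17hg across the 6 libraries was found in Gas5 and Snhg3. Both host small nucleolar RNAs in their introns. Candidates had a mean log2 CPM of 4 or more, and rows with clone-type names (such as Rik or Gm), pseudogenes, microRNAs and structural RNAs were left out. Likeness was the root-mean-square distance of centred log2 CPM over the 6 libraries. It was 0.03 for Gas5 and 0.05 for Snhg3 among 7733 candidate genes. Gas5 measured 196, 200 and 194 CPM in KBP(KK/RR) libraries and 232, 231 and 173 CPM in wild-type KBP libraries, with replicate 3 again the lowest. For Neat1 the nearest genes were Dclre1c, the gene of the nuclease Artemis (0.08), and Gas5 (0.09), and for Miat they were Cnpy1 (0.11) and Neat1 (0.11). For Malat1 they were Celsr3, an atypical cadherin gene (0.06), and Tet2, which oxidises methylated cytosine (0.07). Celsr3 had a log2 fold change of -0.49 and was called lower (edgeR adjusted p = 0.0334, lost without KBP(KK/RR) replicate 5 or wild-type KBP replicate 3 at 0.0890 and 0.148), whereas Tet2 had -0.37 and was not (0.104). With the length and GC trend removed, Celsr3 had -0.27 (edgeR adjusted p = 0.0115), against -0.38 for Malat1. For Tug1 the nearest were Usp45 (0.01) and the splicing regulator gene Mbnl2 (0.02), and for Pvt1 the G-protein subunit gene Gng12 (0.03) and Cpne8 (0.04). With so many candidates some genes lie close to any pattern, so these distances are descriptions.

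**Figure D4:**
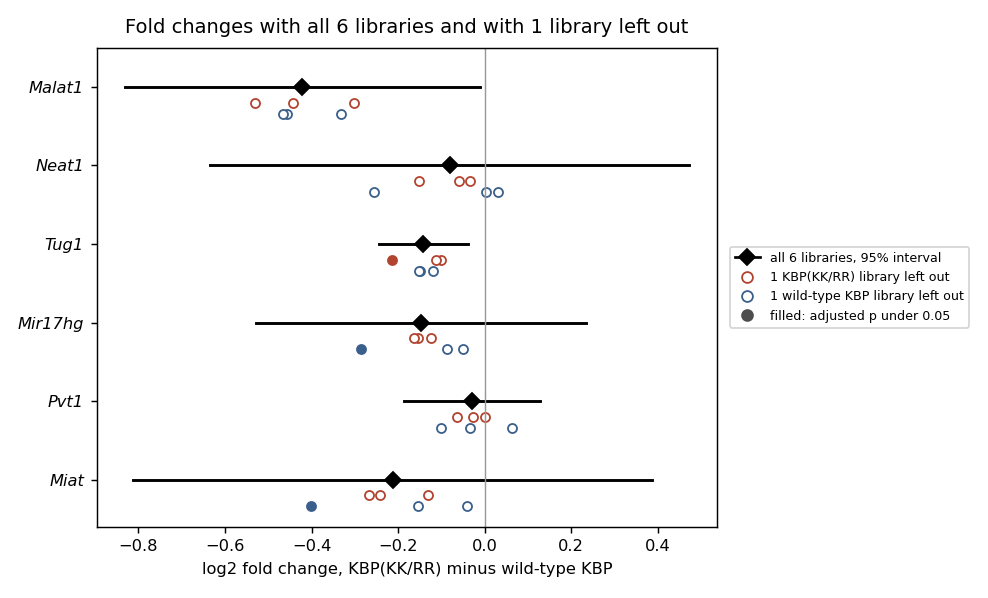
Log2 fold change of KBP(KK/RR) minus wild-type KBP (x axis) for 6 long non-coding RNAs, with all 6 libraries (diamond, line for the 95% interval) and with 1 library left out (circles, filled where the edgeR adjusted p is under 0.05). The filled points are Tug1 without KBP(KK/RR) replicate 4 (-0.21), Mir17hg without wild-type KBP replicate 3 (-0.29) and Miat without the same library (-0.40).

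The class of long non-coding RNAs as a whole had few calls in edgeR. Of 474 such RefSeq genes tested, 1 rose and 6 fell in KBP(KK/RR) cells (1.48%), beside 148 and 287 of 13583 protein-coding genes (3.20%). DESeq2 adjusted p for only 64 of the 474 and called 4 of these, beside 299 of 8699 protein-coding genes. That share was not the lower one, so the order of the 2 classes depended on the method. In limma-voom 5 of the 474 and 259 of the 13583 passed. The median log2 fold change was -0.09 for the non-coding class and -0.0005 for protein-coding genes. A negative sign was held by 299 of the 474, beside 6816 of the 13583 protein-coding genes. Among 21 tested genes of a list of other named long non-coding RNAs, edgeR called 0 in either direction, beside 3.12% of all genes. Of the 21, 8 had an unadjusted p under 0.05, beside 18.6% of all genes. DESeq2, which adjusted p for 7 of the 21, called 0, and limma-voom called 1, the X-inactivation RNA Xist. The median of this list was -0.12. Its most abundant members were Norad (2900097C17Rik), which binds Pumilio proteins, at 174 ± 9.03 CPM in KBP(KK/RR) cells and 170 ± 9.05 CPM in wild-type KBP cells, and Kcnq1ot1, a long imprinted nuclear RNA, at 122 ± 22.4 CPM in KBP(KK/RR) cells and 149 ± 10.0 CPM in wild-type KBP cells (log2 fold changes 0.04 and -0.29, edgeR adjusted p 0.722 and 0.421). By smallest p, the list gave Tsix, the antisense partner of Xist (-0.28, adjusted p = 0.144), H19 (-0.19, 0.147) and Mirg (0.87, 0.196, at 0.536 CPM in KBP(KK/RR) and 0.286 CPM in wild-type KBP cells). Tsix and Xist overlap on opposite strands, and their reads cannot be told apart without the strand setting.

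Genes for nuclear speckle and paraspeckle proteins gave no call, beside 3.12% of all genes, a share at which lists of this size can hold 0. An unadjusted p under 0.05 was reached by 18.6% of all genes. Of 27 nuclear speckle genes tested, edgeR called 0, with 1 at an unadjusted p under 0.05; by DESeq2 it was 0 of 26. The scaffold genes Srrm2 and Son measured 876 ± 128 and 497 ± 48.8 CPM in KBP(KK/RR) cells, against 1109 ± 120 and 566 ± 31.9 CPM in wild-type KBP cells (log2 fold changes -0.34 and -0.19, edgeR adjusted p 0.330 and 0.206). Of 26 paraspeckle genes edgeR called 0, with 3 at an unadjusted p under 0.05; by DESeq2 it was 0 of 24. Among them Cpsf7, a cleavage factor gene, averaged 132 ± 0.402 CPM in KBP(KK/RR) cells and 145 ± 3.26 CPM in wild-type KBP cells (log2 fold change -0.13, edgeR adjusted p = 0.0681), and the splicing regulator gene Rbm4b 11.2 ± 0.393 CPM in KBP(KK/RR) cells and 13.2 ± 0.964 CPM in wild-type KBP cells (-0.24, adjusted p = 0.0885). The medians of the speckle and paraspeckle lists were 0.007 and 0.02.

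Genes for 3′ end processing and nuclear decay gave 0 calls among 35 tested, beside 3.12% of all genes, and 0 of 33 in DESeq2. Of the 35, 5 had an unadjusted p under 0.05, beside 18.6% of all genes. The median log2 fold change of the 35 was 0.04, beside -0.002 over all genes tested. Of the 35, 26 were positive, beside 7058 of all 14340 genes. RNase P cuts the ends of Malat1 and of the long Neat1 transcript. Its subunit gene Rpp14 averaged 46.4 ± 0.217 CPM in KBP(KK/RR) cells and 41.0 ± 2.65 CPM in wild-type KBP cells (0.18, edgeR adjusted p = 0.0682). The exosome subunit genes Exosc1 and Exosc9 had log2 fold changes of 0.14 and 0.13 (edgeR adjusted p 0.115 and 0.180). Among 11 genes for proteins that bind Tug1, Rmst or Miat, edgeR called 0, with 0 at an unadjusted p under 0.05; by DESeq2 it was 0 of 9. Qk, the gene of QKI, averaged 236 ± 12.97 CPM in KBP(KK/RR) cells and 244 ± 0.902 CPM in wild-type KBP cells, and Sf1 438 ± 13.8 CPM in KBP(KK/RR) cells and 451 ± 12.4 CPM in wild-type KBP cells (edgeR adjusted p 0.530 and 0.588).

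Around Mir17hg, 2 of 27 genes that regulate it or are known targets of its microRNAs were called (7.41%, beside 3.12% of all genes), 1 in each direction. Mycn, a Myc family gene, rose to 280 ± 13.3 CPM in KBP(KK/RR) cells, against 251 ± 7.27 CPM in wild-type KBP cells (log2 fold change 0.16, edgeR adjusted p = 0.0379). E2f2, a cell-cycle transcription factor gene, fell to 30.0 ± 1.62 CPM in KBP(KK/RR) cells, against 35.5 ± 2.40 CPM in wild-type KBP cells (-0.24, edgeR adjusted p = 0.0291). In DESeq2 2 of 24 passed, beside 308 of 8838 genes in all, and in limma-voom 0 of 27. Mycn did not pass without KBP(KK/RR) replicate 5 or 6 or wild-type KBP replicate 1 or 2 (edgeR adjusted p 0.0589 to 0.260), and E2f2 without any KBP(KK/RR) replicate or wild-type KBP replicate 1 (0.0610 to 0.128). Neither passed in edgeR without robust estimation (0.0661 for Mycn and 0.0526 for E2f2). Of 15 microRNA processing genes edgeR called 0, with 1 at an unadjusted p under 0.05, beside 18.6% of all genes. By DESeq2 it was 0 of 12. The gene with the smallest p was Eif2c3, an Argonaute gene, at 8.81 ± 0.992 CPM in KBP(KK/RR) cells and 10.98 ± 1.22 CPM in wild-type KBP cells, with groups that did not overlap (log2 fold change -0.32, edgeR adjusted p = 0.0655). Dicer1, which cuts microRNA precursors, averaged 147 ± 12.2 CPM in KBP(KK/RR) cells and 160 ± 10.9 CPM in wild-type KBP cells (-0.12, edgeR adjusted p = 0.308).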

How the data were processed

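RNA of 6 mouse ES cell libraries (3 per group) was depleted of ribosomal RNA (RiboZero) and made into ScriptSeq v2 libraries, per the labels' protocols. The submitters' processing notes name bcl2fastq, TopHat, HTSeq, DESeq2 and builds mm10 and GRCm38, with the annotation, strand setting and filters not given in the sources used here. Raw counts as deposited are whole reads per gene symbol. The authors' deposited normalized signal is, by its values, each count over 1 factor per library: 100% of its values above 0 came out whole within 0.01, 0 differed from the raw counts, and the test on these recovered reads called 448 genes.

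Counts were tested with edgeR 4.0.16 under R 4.3.3 (filterByExpr, TMM, robust quasi-likelihood fit, group as the term), with Benjamini-Hochberg adjustment over 14340 genes. A positive log2 fold change means higher in KBP(KK/RR); the SE is the absolute log2 fold change over the square root of F, and intervals use the fit's degrees of freedom. CPM are counts over TMM-scaled totals, as mean ± SD. Replicates of a group differed by more than counting noise (chi-square per degree of freedom 2.70 to 7.17). Symbols were matched to RefSeq GRCm38.p6 (21571 by symbol, 1663 by a synonym, 186 unmatched), and 23025 had a GENCODE M21 length. Tests were checked on simulated counts.

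The members and lists were chosen with earlier results of these data known. The genes named are the members, up to 3 per list by p and 2 by CPM, and the nearest neighbours with a row in the table. Also named are the 2 likest genes (mean log2 CPM 4 or more, with clone, pseudogene and structural RNA names left out). Rn45s, Xist and the hairpin rows were named after their values were seen. Alternatives were DESeq2 1.42.0, limma-voom (limma 3.58.1), limma on log2 of the normalized signal plus 1, other scalings and filters, structural RNA left out, a length and GC trend taken out (splines with 5 degrees of freedom), no robust estimation and each library left out. A gene picked by the naming rule is not reported here.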

Additional observations from a re-analysis of the deposited data

How the results depend on the processing

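No paired analysis was possible because the groups share no replicate number. For the 6 genes with reads, 18 alternatives each were run, 1 of them (the recovered reads) chosen after seeing the data. Malat1 (-0.53 to -0.30), Miat (-0.40 to -0.0417), Tug1 (-0.21 to -0.10) and Mir17hg (-0.29 to -0.05) kept a negative log2 fold change in all of them. Neat1 turned positive with the length and GC trend removed (0.17) and without wild-type KBP replicate 1 (0.0318) or 2 (0.0031), and ran from -0.26 to 0.0318 with 1 library left out. Pvt1 ran from -0.10 to 0.063 in those fits and turned positive without wild-type KBP replicate 2. Calls appeared for Malat1 in limma-voom (-0.43) and without robust estimation (-0.42), for Tug1 with no filter on low counts (-0.14) and with the trend removed (-0.11), without KBP(KK/RR) replicate 4 for Tug1 (-0.21), and without wild-type KBP replicate 3 for Miat (-0.40) and Mir17hg (-0.29). The cause was not tested. The number of genes called was 448, and 270 in limma-voom, 966 with no filter, 686 with the trend removed, 282 without robust estimation, 823 at an adjusted p under 0.1, and 122 to 767 with 1 library left out. With upper-quartile factors the split was 235 higher and 205 lower, against 151 and 297. Pdgfra, Col4a1, Col4a2 and Tagln, and the neural marker Ncam1, lost their calls in 4 to 11 of 18 alternatives. Depth limits Rmst, which had no counts and could not be tested.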

Other observations

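The imprinted cluster of maternally expressed long non-coding RNAs that holds Meg3, Rian and Mirg had positive signs for all 3 genes, named here after their values were seen. Rian averaged 7.64 ± 0.552 CPM in KBP(KK/RR) cells and 6.62 ± 0.248 CPM in wild-type KBP cells (log2 fold change 0.21, edgeR adjusted p = 0.232), with groups that did not overlap. Meg3 averaged 5.32 ± 0.497 CPM in KBP(KK/RR) cells and 4.58 ± 0.775 CPM in wild-type KBP cells (0.21, adjusted p = 0.380). None of the 3 passed the threshold in edgeR. The X-inactivation RNA Xist averaged 4.27 ± 1.37 CPM in KBP(KK/RR) cells and 7.29 ± 1.41 CPM in wild-type KBP cells (log2 fold change -0.77, SE 0.27, edgeR adjusted p = 0.224). It passed in limma-voom (adjusted p = 0.0450).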
